A study of Mus musculus with 9 samples.

Results

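Bone marrow of 3 mice that had received cartilage-derived cells (the CDSCs group) was compared with marrow of 3 healthy mice (the Health group), which are 6 of the 9 mice sequenced. The 6 mice were chosen by their group labels alone. The CDSCs recipients were wild-type CD45.2 mice, 16 weeks old, that were irradiated with 9.5 Gy and given 500000 cells one day later, and marrow was taken 2 weeks after the transplant. The cells were isolated by enzyme from costal cartilage of newborn C57BL/6J donors that carried CD45.1 or ZsGreen and were mostly CD45-negative, CD51-positive cells. The Health mice were age-matched and neither irradiated nor transplanted, so the effect of irradiation and that of the transplanted cells cannot be told apart in this comparison. The third group (BMT, 3 mice) was irradiated in the same way and given 500000 bone marrow cells, and its values are set beside the others where they bear on the comparison. The labels give total marrow cells and 1 sample per mouse, whereas the methods describe bead-sorted CD45-positive and CD45-negative cells that were sequenced in equal amounts and merged. Which of these the counts hold is not settled here, and under the merged design a fixed mix of both fractions, not the marrow's own proportions, would lie behind each value, Ptprc (CD45) included. The mice of the 3 groups are different animals, and in such samples fewer cells of a type cannot be told apart from less RNA per cell.

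Bone marrow holds the precursors of blood cells together with a small share of stromal, endothelial and bone cells that form their niche. Irradiation kills dividing blood precursors, and the marrow refills from surviving or transplanted cells in the following weeks. The mitochondrial genome encodes proteins of the respiratory chain and ATP synthase together with the ribosomal and transfer RNAs used to translate them inside the organelle.

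Gene totals were between 8741155 and 10181289 reads in the CDSCs mice, and between 8938925 and 10121990 in the Health mice, so that read counts of single mice are close to a common scale. Many nuclear names in the table did not carry the counts that marrow is known for. Hbb-bs and Hbb-bt (adult beta globin), S100a8 and Camp (neutrophil proteins) and Tmsb4x were listed at 0 in all 9 mice, 50 of 87 ribosomal protein names had a mean under 10 reads, and the name with the most reads was Olfr648, an olfactory receptor. Of the markers the study stained or measured by PCR, Cxcl12, Kitl, Adipoq, Sp7, Emcn and Itgav were at 0 or 1 read in each of the 6 mice. The names Vcam1 (48 to 93 reads in the 6 mice), Spp1 (24 to 71) and Lepr (88 to 135) carried reads and were not called, and the gene listed as Ptprc was lower in CDSCs (log2 fold change -0.80, edgeR adjusted p = 0.00702). The cause was not tested.

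Names are therefore given here at 3 levels. The 37 names of the mitochondrial genome were used as listed. Nuclear names were used as listed in stretches that start at a chromosome's first gene and in which at least 85% of ubiquitous housekeeping genes had a mean of at least 100 reads, with at least 5 such genes. These were the first 86.9 Mb of chromosome 4, 39.6 Mb of chromosome 6 and 36.8 Mb of chromosome 15 (GRCm38), where 32 of 35 housekeeping genes (91.4%) carried counts, against 238 of 810 (29.4%) elsewhere. The rule itself requires a share of at least 85% inside, so this contrast is no separate evidence for the names. This check was set up after the counts had been seen, and its limits are soft: the chromosome 4 stretch ends at Rps6 with a mean near the minimum, and Rpl37 on chromosome 15 fell below it. Every other nuclear name is written as the gene listed under that name.

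CDSCs marrow differed from healthy marrow in 2134 of 12572 genes tested (17.0%), by the quasi-likelihood test of edgeR and a Benjamini-Hochberg adjusted p below 0.05. Higher genes numbered 1093 (8.69% of the genes tested) and lower genes 1041 (8.28%), a split that moved to 1219 higher and 835 lower when reads were scaled by library size only. Rises had a median of 1.99-fold and falls a median of 2.26-fold, and 267 genes rose and 200 fell by at least 4-fold. The median log2 fold change of all genes tested was -0.02. The number of calls rested on single mice, with 1071 genes called without Health 1, 1114 without Health 2 and 1190 without CDSCs 2, and 1273 were called when the BMT mice were left out of the fit.

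**Figure D1:**
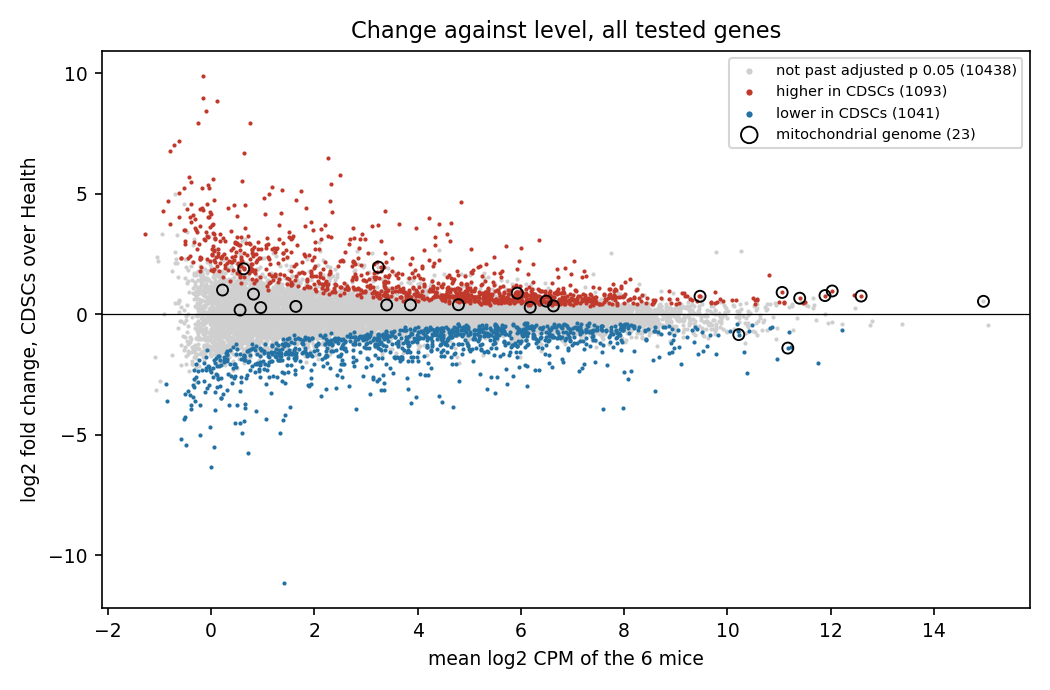
Log2 fold change of CDSCs over Health (vertical axis) against the mean log2 CPM (reads scaled to a common library size) of the 6 mice (horizontal axis), 1 point per tested gene. The 1093 genes called higher are red, the 1041 called lower are blue, and black circles mark the 23 tested genes of the mitochondrial genome.

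In 4298 genes (34.2% of those tested) the 3 CDSCs mice and the 3 Health mice did not overlap, with CDSCs above Health in 2102 genes (16.7%) and below in 2196 (17.5%). Of the called genes, 2097 were without overlap and 37 overlapped. The 2201 genes without overlap that were not called had a median absolute log2 fold change of 0.54, against 1.08 in those that were called. In 463 genes the groups were at least 1 log2 unit apart at their nearest mice, 233 with CDSCs above and 230 with CDSCs below, and 456 of them were called.

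CDSCs mice also differed more among themselves. The median SD of log2 CPM over the genes tested was 0.332 in CDSCs, 0.239 in Health and 0.215 in BMT mice. Across genes, the SD of the log2 differences was 0.633 to 0.968 for pairs of CDSCs mice, 0.475 to 0.603 for pairs of Health mice and 0.891 to 1.15 for pairs of a CDSCs and a Health mouse. The pair CDSCs 1 and CDSCs 3 (0.968) was therefore as far apart as some pairs from the separate groups. CDSCs 1 was the mouse farthest from the others of its group in 46.8% of genes, and Health 3 in 49.7% of genes.

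**Figure D2:**
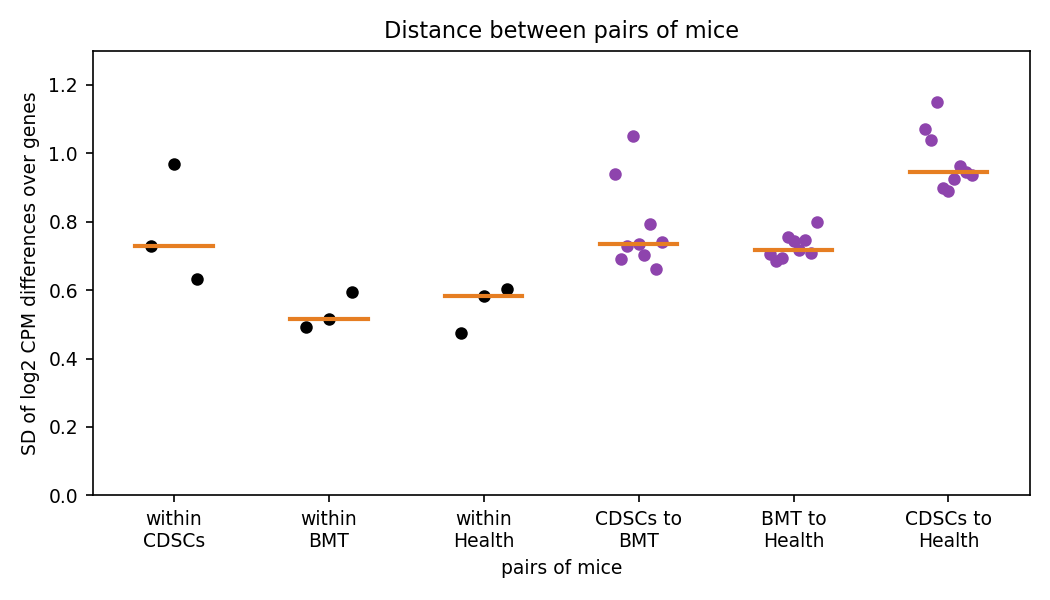
SD over 12572 genes of the log2 CPM differences between pairs of mice (vertical axis), 1 point per pair, with the median of each kind of pair as an orange line. Pairs within a group are black and pairs between groups purple, and the CDSCs to Health pairs sit between 0.891 and 1.15.

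The transcripts of the mitochondrial genome took a larger share of reads in CDSCs marrow. They made up 6.25%, 7.15% and 7.01% of the reads in the 3 CDSCs mice (6.8% ± 0.487, SD, n = 3) and 4.84%, 4.88% and 3.95% in the Health mice (4.56% ± 0.527, SD, n = 3). Each CDSCs mouse was above each Health mouse, 1.49-fold in the mean, at an exact two-sided permutation p of 0.1, the smallest that 3 against 3 mice allow. The BMT mice had 4.23%, 4.35% and 5.12%, of which the last was above the Health mice.

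All 13 protein-coding mitochondrial genes had a log2 fold change above 0 (0.28 to 1.95, median 0.75), 8 were called higher and none lower, and in 11 each CDSCs mouse was above each Health mouse, beside 8.69% called higher and 16.7% so placed over all genes tested. Of the complex I subunits, mt-Nd1 had 53073, 52848 and 61048 reads in the CDSCs mice and 25584, 30993 and 25817 in the Health mice. Each CDSCs mouse was far above the highest Health mouse, and the log2 fold change was 0.96 ± 0.163 (SE, adjusted p = 0.00476, edgeR's quasi-likelihood test). mt-Nd2 had 30106, 27249 and 26817 reads against 13332, 16161 and 13477 (log2 fold change 0.90 ± 0.135, SE, edgeR adjusted p = 0.00262). The groups did not overlap there either, and mt-Nd4, mt-Nd5 and mt-Nd6 rose by 0.66, 0.77 and 0.74 on the log2 scale.

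mt-Cytb, the cytochrome b of complex III, had 83405, 75234 and 71585 reads against 39880, 49178 and 40893 and rose by 0.75 on the log2 scale (edgeR adjusted p = 0.00724). mt-Co3, a subunit of cytochrome c oxidase, held a very small share of the mitochondrial reads. It had 774, 745 and 842 reads against 380, 478 and 378 and rose by 0.87 (edgeR adjusted p = 0.00558). mt-Co1, another subunit of that enzyme and the most abundant mitochondrial transcript, had a log2 fold change of 0.53 that was not called (edgeR adjusted p = 0.0796), although its groups did not overlap. These 7 called genes of complexes I, III and IV remained called whichever of the 9 mice was left out. The call of the sparsely counted mt-Atp8, a subunit of ATP synthase, was lost without CDSCs 2, CDSCs 3, Health 1 or Health 2.

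The mitochondrial ribosomal RNAs went the other way. mt-Rnr2, the large subunit RNA, had 15450, 15740 and 11078 reads in the CDSCs mice and 39965, 43117 and 21848 in the Health mice. No CDSCs mouse reached the lowest Health mouse, and the log2 fold change was -1.41 ± 0.262 (SE, edgeR adjusted p = 0.00683). mt-Rnr1, the small subunit RNA, had a log2 fold change of -0.85 (edgeR adjusted p = 0.0396), its groups overlapped, and its call was lost in 8 of the 9 fits that left out a mouse. Health 3 had the lowest count of both RNAs among the Health mice. The BMT mice had 14670, 16778 and 22910 reads of mt-Rnr2 and 6313, 7393 and 8643 of mt-Rnr1, which gave log2 fold changes against the same Health mice of -1.07 (edgeR adjusted p = 0.0654) and -1.11 (edgeR adjusted p = 0.0453). Between CDSCs and BMT no difference was called in mt-Rnr2 (edgeR adjusted p = 0.519) or mt-Rnr1 (edgeR adjusted p = 0.589). None of the 8 tested mitochondrial transfer RNAs was called (edgeR; lowest adjusted p 0.104), beside 17.0% of all genes, while all 8 had a log2 fold change above 0 (median 0.38) and 5 had each CDSCs mouse above each Health mouse, beside 16.7% of all genes.

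**Figure D3:**
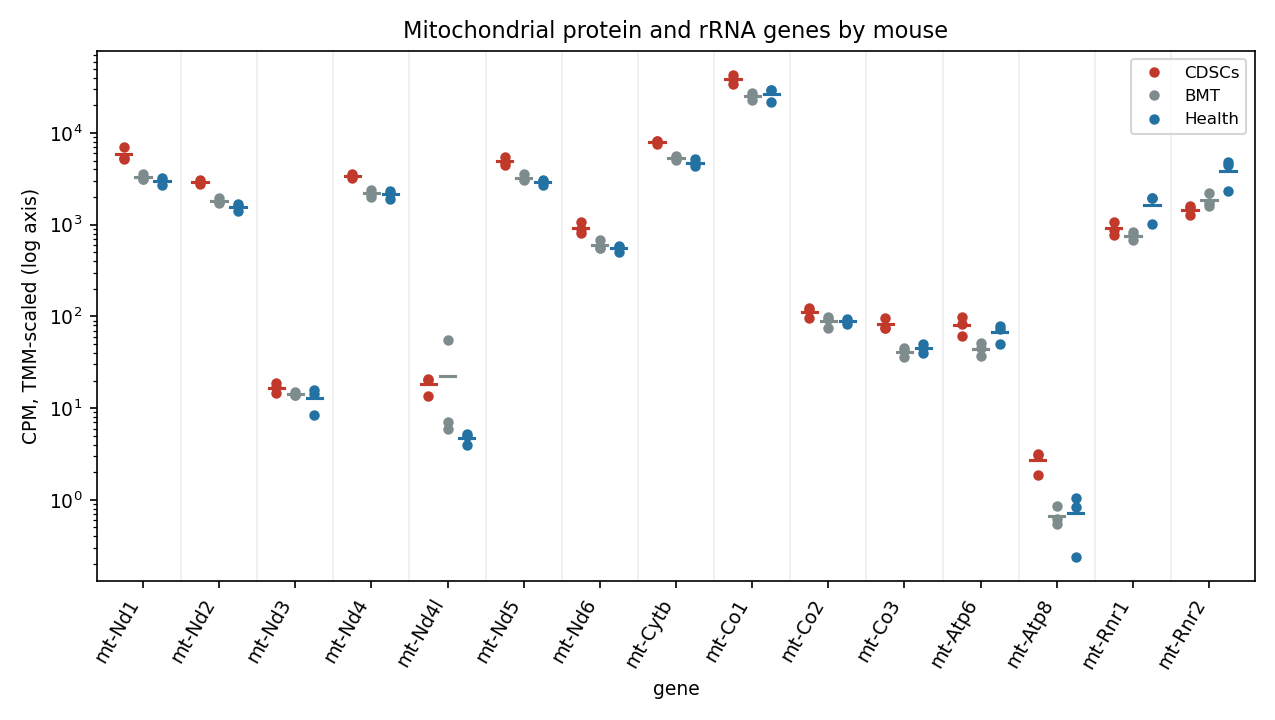
CPM of the 13 protein-coding and 2 ribosomal RNA genes of the mitochondrial genome by mouse (log axis), with CDSCs in red, BMT in grey and Health in blue, points for mice and bars for group means. CDSCs mice lie above Health mice in 11 of the 13 protein-coding genes and below them in mt-Rnr2.

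In the stretches with checked names, 110 of 538 genes tested were called (20.4%), 66 higher (12.3%) and 44 lower (8.18%), against 17.0% of all genes tested. The groups did not overlap in 203 of these genes (37.7%), against 34.2% of all genes tested. The count fell to 70 without CDSCs 2, 65 without Health 1 and 60 without Health 2. It rose to 146 without CDSCs 1 and 114 without CDSCs 3. With at least 3 housekeeping genes per stretch, the first setting used, 122 of 587 genes were called, and with a mean of at least 500 reads, which leaves 80.4 Mb of chromosomes 4 and 6, 60 of 328 were called. Under that stricter setting the stretches end at 49.5 Mb of chromosome 4 and 30.9 Mb of chromosome 6. Of the genes described below, Atp6v0d2, Runx1t1, Epha7 and Met stay inside. Klf4, Svep1, Col27a1 and all genes of chromosome 15, such as Myo10, Dab2, Tars and Ank, lie outside.

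Atp6v0d2, a proton pump subunit found at high level in osteoclasts and macrophages (chr4:19876841-19922605), showed the clearest rise. It had 545, 435 and 574 reads in the CDSCs mice and 30, 32 and 62 in the Health mice, and the BMT mice had 487, 610 and 585. Both irradiated groups were far above Health, by a log2 fold change of 3.59 ± 0.263 (SE) in CDSCs and 3.66 in BMT, and the difference between CDSCs and BMT was -0.08 (edgeR adjusted p = 7.42e-05 for CDSCs, 0.000153 for BMT and 0.883 between them). These comparisons share the Health mice.

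Myo10, Dab2 and Svep1 were also higher in CDSCs than in Health mice. Myo10, an unconventional myosin of filopodia (chr15:25622525-25813673), had 825, 478 and 1131 reads against 105, 128 and 131 in Health (log2 fold change 2.69 ± 0.301, SE, edgeR adjusted p = 0.000549). Dab2, an endocytic adaptor, had 85, 69 and 92 reads against 2, 1 and 5 (4.82 ± 0.535, SE, edgeR adjusted p = 0.000536). In both genes the lowest CDSCs mouse was well above the highest Health mouse. Svep1, a large extracellular matrix protein, had 141, 111 and 337 reads against 25, 20 and 19 (3.16, edgeR adjusted p = 0.00243). The log2 fold change was 5.56 for Dab2 without Health 3 and 2.40 for Svep1 without CDSCs 3, and both stayed called. In the BMT mice, Myo10 rose by 1.72 and Dab2 by 3.20 against the same Health mice (edgeR adjusted p = 0.0144 and 0.0164), and Svep1 had 1.14 (edgeR adjusted p = 0.255). None of the 3 was called between CDSCs and BMT (edgeR adjusted p = 0.117, 0.0893 and 0.0596).

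Of the 4 collagen chain genes tested in the stretches, 3 were called higher, beside 12.3% of the genes tested there. Col15a1 had 178, 59 and 40 reads in the CDSCs mice and 16, 12 and 22 in Health (log2 fold change 2.35, edgeR adjusted p = 0.0125). Col27a1 had 66, 24 and 47 against 5, 8 and 3 (2.99, edgeR adjusted p = 0.00592), and Col28a1 had 16, 39 and 12 against 4, 4 and 3 (2.48, edgeR adjusted p = 0.0444). The groups did not overlap in these 3 genes, as in 37.7% of the genes of the stretches, and the call was lost in Col15a1 without Health 2 and in Col28a1 in 5 of the 9 fits that left out a mouse. Col15a1 had a log2 fold change of 1.53 without CDSCs 1, and Col28a1 had 1.83 without CDSCs 2. The fourth, Col1a2, a chain of type I collagen, had 140263, 35164 and 8889 reads in the CDSCs mice and 1657, 24991 and 1285 in the Health mice. Its spread within each group was large, the groups overlapped, and it was not called (log2 fold change 2.63, edgeR adjusted p = 0.154). Single mice decided this value: without Health 2 the log2 fold change of Col1a2 was 5.19 and called (edgeR adjusted p = 0.0274), and without CDSCs 1 it was 1.22 (edgeR adjusted p = 0.462).

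CDSCs 1, the mouse with the highest Col1a2, was also the highest of the 6 mice for Pax5 and Cd72, genes of B cells, and for Il7r, a receptor of lymphoid cells. Pax5 had 15909, 3425 and 707 reads in the CDSCs mice and 2117, 3393 and 2242 in Health. Cd72 had 6802, 1416 and 530 against 905, 1571 and 1144, and Il7r had 3037, 712 and 838 against 449, 720 and 549. None was called (edgeR adjusted p = 0.327, 0.306 and 0.11). The part of this mouse in the results was not tested, beyond the fits without it.

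Tars, the threonyl-tRNA synthetase, was among the genes with the lowest p in the checked stretches. It had 3868, 4999 and 3624 reads against 1877, 1978 and 1912 (log2 fold change 1.04 ± 0.133, SE, edgeR adjusted p = 0.00118). Each CDSCs mouse was above each Health mouse. None of the 4 ribosomal protein genes tested in the stretches was called, beside 20.4% of the genes there. Of 7 nuclear genes of the respiratory chain in the stretches, Ndufaf4, an assembly factor of complex I, rose by 0.85 (edgeR adjusted p = 0.00553) and Ndufb6 by 0.50 (edgeR adjusted p = 0.0445, lost in 6 of the 9 fits that left out a mouse), and the other 5 were not called, so that 2 of 7 were higher beside 12.3% of the genes there.

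Smaller or less even rises were seen in Laptm4b (1.82), Ctnnal1 (1.63), Coq3, an enzyme of ubiquinone synthesis (1.56), and Ptpn3 (1.49 on the log2 scale), of which Ptpn3 lost its call without CDSCs 2, CDSCs 3, Health 1 or Health 2. Hepacam2, with 308, 70 and 97 reads against 23, 36 and 14, rose by 2.59 and lost its call without Health 1 or Health 3. Pdzd2 rose by 2.01 and lost its call without any single Health mouse. Sit1, a T-cell signalling adaptor, rose by 1.79 through 466 reads in CDSCs 1 against 154 and 79 in the other CDSCs mice, and lost its call in 7 of the 9 fits that left out a mouse. Without CDSCs 1, the log2 fold change was 1.76 in Hepacam2, 1.12 in Pdzd2 and 0.87 in Sit1.

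Klf4, a transcription factor of monocytes and other cells (chr4:55527143-55532466), fell in both irradiated groups. It had 4246, 2408 and 1600 reads in the CDSCs mice, 9039, 10364 and 12418 in the Health mice and 2378, 2590 and 2713 in the BMT mice. Every irradiated mouse was below every Health mouse, with a log2 fold change of -2.05 ± 0.26 (SE) in CDSCs and -2.15 in BMT (edgeR adjusted p = 0.00109 and 0.00278). Ank, a transporter that acts on extracellular pyrophosphate, had 1368, 882 and 677 reads against 4097, 5126 and 2705, and fell by 2.13 on the log2 scale (edgeR adjusted p = 0.00101).

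Runx1t1, a transcriptional corepressor, had 34, 16 and 10 reads in the CDSCs mice and 133, 287 and 49 in Health (log2 fold change -3.05, edgeR adjusted p = 0.0114, and -2.35 without Health 2, edgeR adjusted p = 0.0415). Epha7, an ephrin receptor, had 9, 6 and 4 against 43, 49 and 45 (-2.91, edgeR adjusted p = 0.000702). Met, the receptor of hepatocyte growth factor, had 266, 157 and 232 against 581, 550 and 715 (-1.57 ± 0.198, SE, edgeR adjusted p = 0.00107). No CDSCs mouse reached a Health mouse in these genes. The BMT mice had 12, 13 and 31 reads of Runx1t1 and 8, 13 and 13 of Epha7, with log2 fold changes against the same Health mice of -3.17 and -2.10 (edgeR adjusted p = 0.0313 and 0.00823). They had 438, 464 and 455 reads of Met (-0.54, edgeR adjusted p = 0.184), between the CDSCs and the Health mice.

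Fyb, an adaptor of T cells and platelets, fell by 1.03 on the log2 scale. Gm2245 lies within the bounds of Fyb on the other strand and fell by 1.33, and as the strand setting of the counting is not given in the sources used here, their reads cannot be told apart. Fsd1l fell by 1.95, Ggh, an enzyme that trims folates, by 1.18 (lost without CDSCs 2), Gm42547 by 1.14 and Mob3b by 0.96. Ankrd33b fell by 1.37, and its call was lost in 7 of the 9 fits that left out a mouse.

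**Figure D4:**
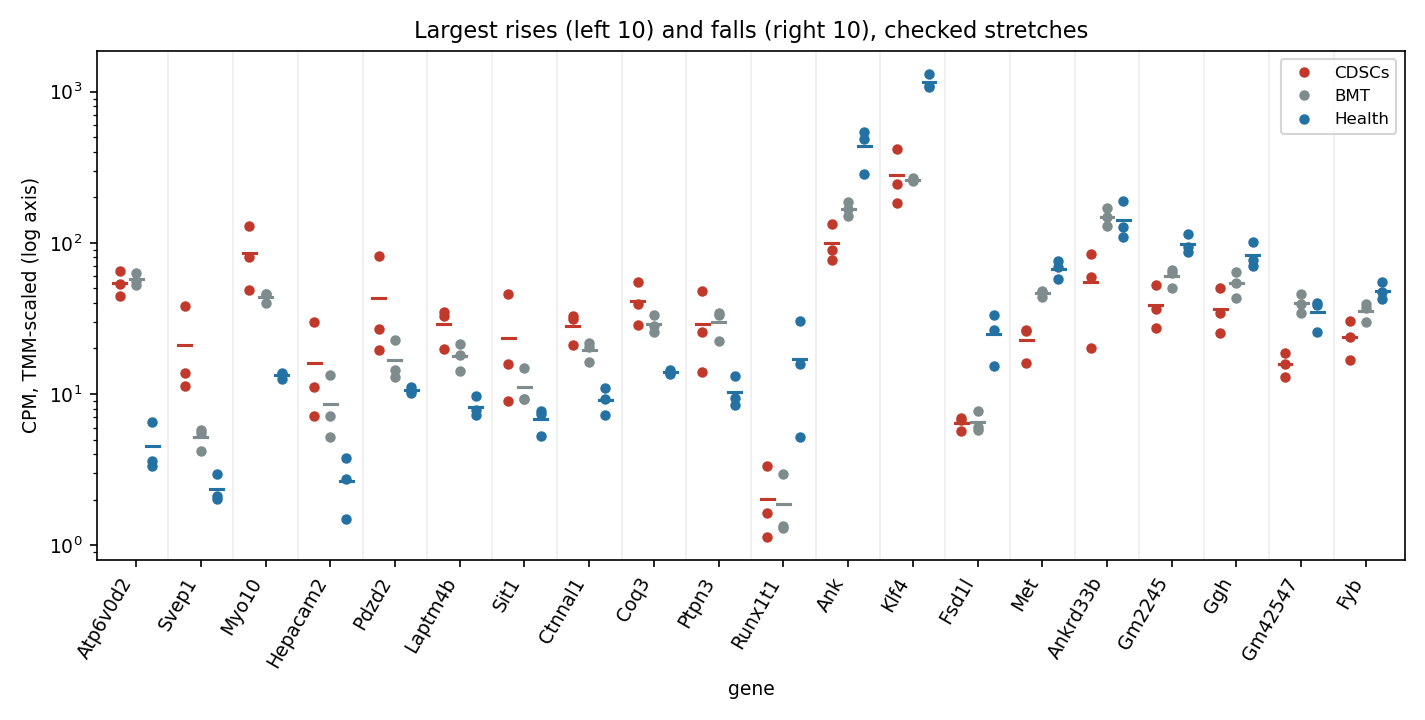
CPM by mouse (log axis) of the 10 genes with the largest rise and the 10 with the largest fall in the checked stretches, with CDSCs in red, BMT in grey and Health in blue, points for mice and bars for group means. CDSCs and Health mice do not overlap in any of the 20 genes, which the rule for naming them requires.

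Of the 10 most abundant genes with checked names, 9 were not called, Col1a2 among them, beside 20.4% called of all genes tested in the stretches. Pabpc1, the poly(A)-binding protein, had 81391, 56777 and 52579 reads against 73968, 89346 and 55074. Tln1, Anp32b, Hemgn, Ywhaz, Tspan33, Vcp and the ribosomal protein gene Rps20 were not called, with log2 fold changes from -0.71 in Tspan33 to 0.44 in Rps20. Ptbp3, an RNA-binding protein, fell by 0.53 (edgeR adjusted p = 0.0304), and the call was lost in 6 of the 9 fits that left out a mouse.

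Outside these stretches the largest changes are given under their listed names only. The gene listed as Lilra6 had 70, 53 and 69 reads in the CDSCs mice and 713, 946 and 992 in Health, which gave the lowest p of all genes (log2 fold change -3.85 ± 0.184, SE, edgeR adjusted p = 1.31e-05). The gene listed as Mmp12 had 567, 386 and 294 reads against 1, 5 and 15, and that listed as Zc3h8 had 165, 144 and 171 against 7, 3 and 3. The gene listed as Fn1 had 420, 244 and 830 reads against 6635, 6337 and 9410. In all 4 the groups did not overlap. Among the genes named for their size of change, that listed as Cyp2d10 had 188, 67 and 103 reads against 1, 0 and 0 and kept its call whichever of the 9 mice was left out. Other large changes were uneven between mice. The gene listed as Gm19409 had 2, 40 and 290 reads against 0 in each Health mouse, that listed as LOC102637012 had 2460 reads in CDSCs 3 and 29 and 76 in the other CDSCs mice, and that listed as Gm10612 had 5165 reads in Health 3 and 82 and 31 in the other Health mice. Each of these 3 lost its call in some of the fits that left out a mouse.

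Gene lists read by name, most of whose members lie outside the checked stretches are set beside the 17.0% of all genes. Collagen chain names were called higher in 9 of 29 tested and lower in none (31.0% called, median log2 fold change 0.60, against -0.02 in all genes). Matrix metalloproteinase names were higher in 3 and lower in 1 of 12, monocyte and macrophage names higher in 2 and lower in 1 of 8, neutrophil names higher in 1 and lower in 1 of 5, and interferon-induced names higher in 3 and lower in 3 of 10. Erythroid names were higher in 1 and lower in 3 of 11, B-cell names lower in 2 of 11, immunoglobulin names lower in 3 of 22 with a median log2 fold change of 0.49 over the 22, and T-cell and NK-cell names higher in 2 of 7. Cartilage names were higher in 2 of 7, stromal niche names in 2 of 5, muscle names in 2 of 5 and Gimap names in 1 of 4. Endothelial names were lower in 2 of 9, megakaryocyte names in 1 of 6 and p53 target names in 1 of 8, while none of 3 osteoblast names, 6 stem and progenitor names and 9 cell cycle names was called. Nuclear respiratory chain names were higher in 3 and lower in 1 of 39 (10.3%) and ribosomal protein names higher in 1 and lower in 2 of 37 (8.11%). Olfactory and vomeronasal receptor names, which have no known use in marrow, were higher in 6 and lower in 7 of 121.

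Relative to the BMT mice, the means of 1890 of the 2134 called genes (88.6%) had the BMT mean between the CDSCs and the Health mean, against 51.9% of all genes tested. This share rests on genes chosen for their distance between CDSCs and Health and is a description. BMT marrow differed from Health in 307 genes (2.44%) and from CDSCs marrow in 129 (1.03%), and these comparisons share mice with the one above. Of the 2134 genes, 121 also differed between CDSCs and BMT.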

How the data were processed

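Per the labels, total marrow cells of each mouse gave 1 library. The study's methods describe CD45-positive and CD45-negative cells sorted by beads and sequenced in equal amounts before merging, so the makeup of the libraries is not settled here. Reads were trimmed with Trim Galore, aligned with HISAT2 to GRCm38 and counted with featureCounts, and FastQC and MultiQC were used for quality. The annotation and strand setting are not given in the sources used here. Up to a common scale, gene lengths behind the TPM were within 0.1% of GENCODE M21 exon lengths in 9606 of 10104 names checked (95.1%). This does not show that the reads lie under the right names. The authors deposited read counts per gene and TPM (transcript abundance scaled for gene length and depth) for 53172 names.

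Counts were fitted with edgeR 4.0.16 (R 4.3.3): genes passing filterByExpr, TMM scaling, the quasi-likelihood test on all 9 mice with group as the only term, and Benjamini-Hochberg adjustment over 12572 genes at 0.05. Log2 CPM used a prior count of 2. The SE of a log2 fold change was worked back from the test, as its absolute value divided by the square root of the quasi-likelihood F. On counts simulated at the trended dispersion for CDSCs against Health, with 200 of 12572 genes changed 3-fold, it recovered 78%, with 6.02% of its calls false. The simulation had no spread of a gene's own and the same spread in each group. In the data the median SD of log2 CPM was 0.332 in CDSCs and 0.215 in BMT mice. These rates therefore cannot be read as those of the results here. DESeq2 1.42.0 and other scalings, filters and left-out mice were alternatives. GENCODE M21 gave gene places. Nothing in the labels ties mice across groups. Named genes were the mitochondrial genes, the 10 largest rises and falls without overlap (10 CPM or more, on average, in whichever group was higher), the 10 lowest p and the 10 most abundant, over all names and in the checked stretches, up to 3 genes per list, marrow genes used to check names, and genes the study stained. The members and lists were chosen with earlier results of these data known. The checked stretches were set after seeing the data, first with a minimum of 3 housekeeping genes and then, after the genes and values this gave had been seen, with 5. Results of both are given. P-values measure the spread between these mice, and those of edgeR pool the spread of all 3 groups. BMT had the smallest median SD and CDSCs the largest. Without the BMT mice, 1273 genes were called in place of 2134.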

Additional observations from a re-analysis of the deposited data

Results flagged for a closer look

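Some genes that differed between CDSCs and Health also differed between CDSCs and BMT, so that the 2 transplants did not move them alike relative to the same Health mice (edgeR's quasi-likelihood test of the difference, Benjamini-Hochberg adjustment). In the mitochondrial genome, CDSCs were above BMT on the log2 scale by 0.83 in mt-Nd1 (adjusted p = 0.0493), 0.69 in mt-Nd2 (adjusted p = 0.0477) and 1.00 in mt-Co3 (adjusted p = 0.0236). In the checked stretches, the log2 difference of CDSCs from BMT was -1.02 in Met (adjusted p = 0.0458) and -1.34 in Gm42547 (adjusted p = 0.0295). Under names that were not checked, the log2 difference was above 0 for the genes listed as Shpk (2.33), Arf3 (1.94), Serpina3h (1.58), Gm47661 (2.05), Mcam (1.18), Col19a1 (2.6) and Mmp13 (1.84). It was below 0 for those listed as Rbm7 (-2.32), Tmem150c (-1.85), Lilra6 (-2.71), Gm43465 (-2.8), Mmp8 (-2.33) and Bst2 (-1.3). The adjusted p of these genes ran from 0.000307 to 0.0446. The genes listed are those that the rules for named genes had picked, out of 121 that differed in both comparisons. The tests of CDSCs against BMT were not repeated with a mouse left out or with other settings. How firm the calls near 0.05 are, such as mt-Nd1, mt-Nd2 and Met, is therefore not known. No explanation was tested.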

How the results depend on the processing

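The number of genes that differed between CDSCs and Health was 2134. It was 1273 with only the 6 mice of both groups and 1163 with changes under 1 log2 unit set aside, which removes the smaller changes by construction. Leaving out each of the 9 mice gave 1071 to 2640 genes. DESeq2 called 2710 genes and the edgeR likelihood ratio test 2653. The fit without a filter on low counts called 3070, but its prior degrees of freedom were infinite (3.61 to 4.97 in the other quasi-likelihood fits), so that it gave each gene the common trend's spread in place of its own, and its p-values are not used. Higher genes were 51.2% of the calls, 59.3% with library size only and 60.2% with at least 10 counts in every mouse. They were 49.1% with the likelihood ratio test, 48.0% without Health 2 and 46.8% with changes under 1 log2 unit set aside. The replicate number as a block, for numbers that do not pair the mice (correlations of same-numbered CDSCs and Health mice 0.105, -0.108 and 0.216), gave 1507 genes. In the 18 fits other than the unfiltered one, 611 genes were called each time (304 higher, 307 lower), 8 of them mitochondrial and 31 in the checked stretches. The difference in the mitochondrial share was 2.25 percentage points of reads, 4.32 of TPM, and 1.94 to 2.53 with a mouse left out. Over all gene lists 76 members were called, 95 with DESeq2, 78 with RLE size factors and 75 with library size only (135 in the unfiltered fit, not used). The mitochondrial calls were 10, and 8 to 12 with a mouse left out. The causes of the other changes were not tested. Genes under about 10 reads in a group are limited by counting error.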
